A study of Rattus norvegicus with 6 samples.

Results

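Interferon-stimulated genes were examined as a module of 31 genes, chosen by symbol from a list, in cells grown from the aorta of 2 inbred rat strains. All 31 matched a row of the count table, which holds 16770 genes, and 30 of them passed the filter on low counts that left 12614 genes for testing; Rsad2, with 4 to 13 counts per library, did not. The groups were WKY (Wistar Kyoto, the normotensive control strain) and SHR (the spontaneously hypertensive rat), both 3 months old, with no treatment named in the labels and 3 libraries each. Cells labelled endothelial grew out of pieces of the aortic segment next to the heart, in a medium for endothelial cells to which serum and a growth supplement had been added, and were profiled by RNA sequencing with paired reads of 100 bases. In both strains replicates 1 and 2 belonged to batch 1 and replicate 3 to batch 2. The labels give 3 per group without saying whether each library is a separate animal or culture, so a p-value measures the spread between these libraries only.

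Type I interferons are secreted by cells that detect viral nucleic acid, and they act back on the same and neighbouring cells through the receptor pair Ifnar1 and Ifnar2. The receptor-bound kinases Jak1 and Tyk2 phosphorylate STAT proteins such as Stat2, which joins Irf9 in the complex ISGF3 to bind the interferon-stimulated response element (ISRE) of target promoters. Many targets are also transcribed at a lower level without added interferon, and vascular cells respond to interferon readily. The members cover 7 roles: cytosolic RNA sensors, transcription factors, the ubiquitin-like modifier ISG15 with enzymes of the ubiquitin system, poly-ADP-ribose polymerases, effectors that act on RNA, other antiviral effectors, and genes with less settled functions.

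The promoters show what the module shares in sequence, so they are given first. RefSeq promoter windows of the GRCr8 assembly, 250 bases before to 50 bases after the annotated start, matched 24 of the 31 members by gene identifier. The ISRE core was searched on both strands as GAAA, any 2 bases and GAAA; read from the other strand this is TTTC, any 2 bases and TTTC. It was found in 14 of these 24 windows (58.3%), against 1312 of all 33469 promoter entries (3.92%) and 335 of 11241 entries of genes tested here (2.98%). The STAT dimer element searched as TTC, any 3 bases and GAA, which reads the same on both strands, was in 5 of the 24 (20.8%), against 8.87% of all entries. In Bst2 the last 3 bases of the STAT match are also the first 3 bases of the ISRE match shown. The matches are letters in a reference of the BN strain, which is neither of the strains sequenced.

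Windows of 30 bases around the ISRE match are shown for members whose levels are described below, each read in the direction of the gene, with the match in capitals.
Ifih1, GRCr8 chr3:67684008-67684037, minus strand: gaagagaatcGAAACAGAAAccgatgtgtg
Ifi44, GRCr8 chr2:243303847-243303876, minus strand: gcacactgagTTTCAGTTTCatttcccagg
Bst2, GRCr8 chr16:18255079-18255108, minus strand: ccctttccagGAAAATGAAActgaaaggtg
Oas1a, GRCr8 chr12:41330415-41330444, plus strand: cccctctcggGAAATGGAAActgaaaatct
Ifi27, GRCr8 chr6:128355218-128355247, plus strand: gagagctgggGAAATGGAAActtacctcat
Eif2ak2, GRCr8 chr6:21941128-21941157, plus strand: agtccgccggGAAAACGAAAcagagagaac
Ifit3, GRCr8 chr1:241527272-241527301, plus strand: tttaagtctgTTTCAGTTTCtagtttccac
Irf7, GRCr8 chr1:205800073-205800102, minus strand: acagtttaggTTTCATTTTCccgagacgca
The match began 59 bases before the annotated start in Ifih1, 26 in Ifi44, 131 in Bst2, 41 in Oas1a, 84 in Ifi27, 16 in Eif2ak2, 44 in Ifit3 and 69 in Irf7. Bst2 and Oas1a each held a second match that overlaps the one shown, Ifi27 a further one 169 bases before the start, and Ifi44 one after the start. Gbp2, Parp12, Parp14, Rsad2, Xaf1 and Dtx3l also had a match, that of Dtx3l after its start. Irf1 and Irf9 had a STAT match but no ISRE match, shown here with the STAT match in capitals.
Irf1, GRCr8 chr10:38417783-38417811, plus strand: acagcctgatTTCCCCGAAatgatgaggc
Irf9, GRCr8 chr15:33065727-33065755, plus strand: accacgtgatTTCTAGGAActgcacctcc
Other interferon-stimulated genes from a separate list held the ISRE core in 24 of 46 windows (52.2%), and receptor and signalling genes of the pathway in 1 of 16 (6.25%). The STAT element was in 13 of 46 (28.3%) and 4 of 16 (25%) of these windows, so its share in the members was not above that of these lists.

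**Figure D1:**
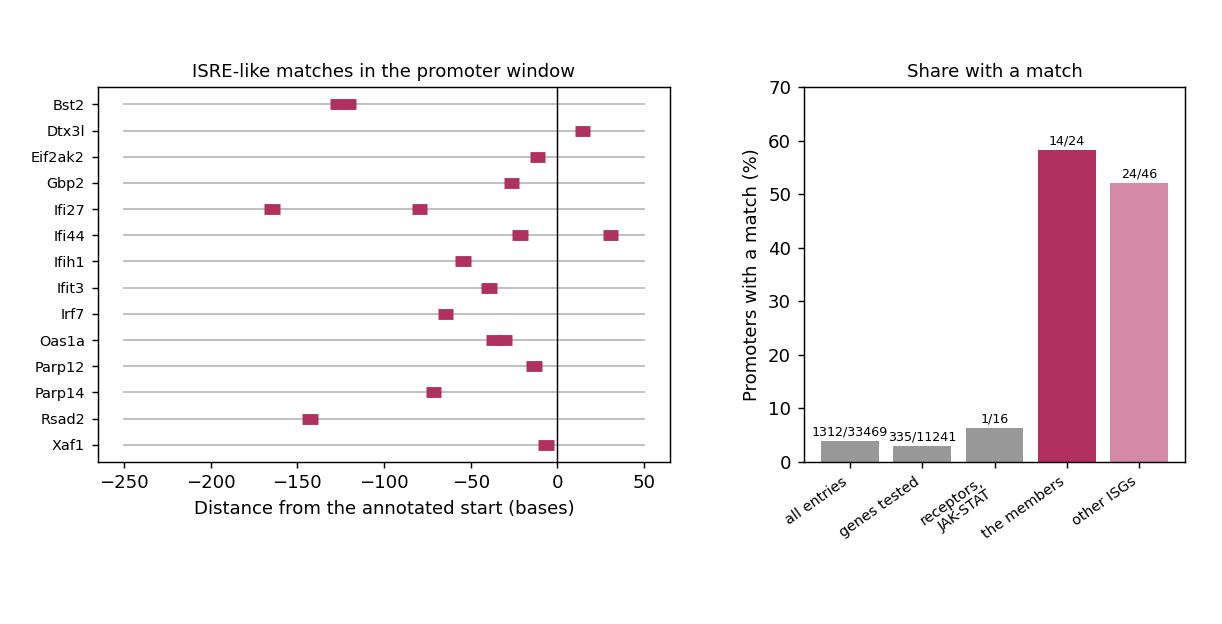
Left, position of each ISRE-core match (thick bars) along the promoter window of the 14 members that have one, in bases from the annotated start; right, percent of promoter windows with a match in each gene set, with the counts above the bars. Most matches lie before the start, and the share is 58.3% in the members against 3.92% in all entries.

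Library totals lay between 18462051 and 19947278 counts, so depth was alike in both strains, and a count of 0 leaves room for up to 3 counts, or 0.15 to 0.19 CPM, by counting error alone. CPM are counts relative to the scaled library total; they are not corrected for gene length, so they are compared between libraries and not between genes. The endothelial label was checked against 12 measured marker genes. Cdh5 and Tie1, which define endothelium, had at most 0.105 and 0.0518 CPM in any library, and Pecam1 0.106 to 2.18 CPM. Tek, another marker of the list, had 0.656, 1.85 and 0.434 CPM in WKY and 4.72, 9.38 and 8.29 CPM in SHR. In Tek, and in Pecam1 at 2 to 42 counts, every SHR library was above every WKY library. The summed endothelial markers came to 25.6 to 99.2 CPM, most of it from Flt1 and Egfl7. The sums were 826 to 9221 CPM for 11 smooth muscle markers, 5948 to 24050 CPM for 11 fibroblast markers and 174 to 1377 CPM for 9 mesothelial markers. The lists hold different genes, so these sums show that each list was detected and do not measure the share of a cell type. Both batch 2 libraries had more smooth muscle marker RNA (9221 CPM in WKY and 2510 in SHR) than any batch 1 library (826 to 1107). In such bulk samples fewer cells of a type and less RNA per cell cannot be told apart. Among 15 leukocyte markers, the pan-leukocyte gene Ptprc and the macrophage genes Adgre1 and Itgam were at 0 in every library, and the sum of 29.1 to 68.9 CPM came mostly from Cd14 and Cd68.

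All 31 members were detected, but 9 stayed under 5 CPM in every library. These 9 include classic strongly induced genes. Isg15, the ubiquitin-like protein that is attached to other proteins after interferon, had 1.21, 1.85 and 0.993 CPM in WKY replicates 1 to 3 and 2.05, 1.02 and 0.518 CPM in SHR. Rsad2, the antiviral enzyme viperin, had 0.303, 0.211 and 0.434 CPM in WKY and 0.315, 0.612 and 0.674 CPM in SHR, from at most 13 counts. The ranges of the strains overlapped in both genes. Ifit3, which binds viral RNA together with its relatives, had 0.777 to 1.61 CPM, and Oasl, an OAS-like protein, 0.404 to 1.3 CPM. Oas1a, a sensor of double-stranded RNA that makes the second messenger of RNase L, lay between 0.496 and 2.17 CPM, and the ISG15 ligase relative Herc6 between 0.561 and 1.61 CPM. The dynamin-like GTPase genes Mx1 (1.12 to 4.14 CPM) and Mx2 (1.22 to 4.53 CPM) and the mitochondrial nucleotide kinase gene Cmpk2 (1.55 to 4.64 CPM) complete the 9. Another 16 members had at least 10 CPM in every library, among them Stat2, Adar, Eif2ak2, Ifi27, Trim25 and all PARP members. Of 12 interferon genes in a list of ligands, Ifne matched a row, with 0.0529 to 0.459 CPM, and the other 11 were not analysed here.

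**Figure D2:**
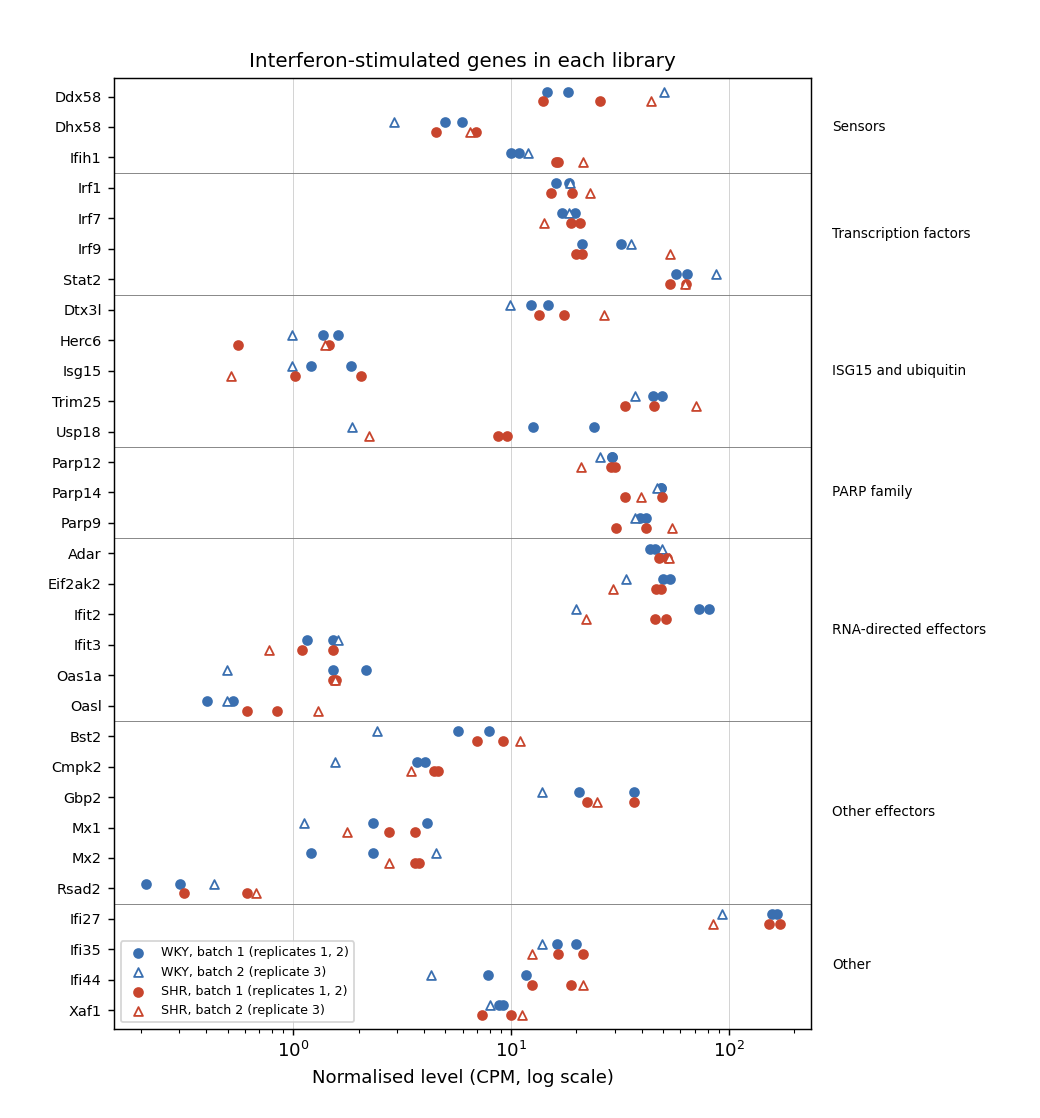
Level of each of the 31 genes in each library (CPM, log axis), grouped by role; blue is WKY, red is SHR, filled circles are the batch 1 libraries and open triangles the batch 2 libraries. The strains overlap in most rows; Ifih1, Ifi44 and Oasl are the tested genes in which every SHR symbol lies to the right of every WKY symbol, and the triangles of Usp18, Ifit2 and Ifi27 lie to the left of the circles.

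The comparison of SHR with WKY asked whether the hypertensive strain differed in these genes. No member passed the test in either direction (edgeR quasi-likelihood test with batch as a term, Benjamini-Hochberg adjusted p below 0.05 over all genes tested, called here), where 0.254% of all genes tested were called. At an unadjusted p below 0.05 there were 2 higher in SHR and 0 lower, against 6.1% higher and 7.18% lower among all genes. DESeq2 called 1 member higher and 0 lower, against 2.85% and 2.66% of all genes. Log2 fold changes (SHR over WKY) were positive in 17 and negative in 13 of the 30 tested members, with a median of 0.10 and a range from -0.63 to 1.21; among all genes tested the median was -0.02 and 47.4% were positive. Differences within 0.5 on the log2 scale were seen in 23 members, and in 77.4% of all genes. Markers of other cell types also differed between the strains by their fitted values, those of smooth muscle and mesothelium mainly in batch 2. All 11 fibroblast markers had a positive log2 fold change (1 called, 7 at an unadjusted p below 0.05). The called marker, Tcf21, had 0, 1 and 2 counts in WKY and 23, 23 and 461 in SHR. Tcf21 and Dpt, both among the 7, passed the filter on low counts through the SHR libraries, so the sizes of their differences are uncertain. The 11 markers summed to 5948, 10510 and 16740 CPM in WKY replicates 1 to 3 and 17830, 14700 and 24050 CPM in SHR. Of 10 tested smooth muscle markers, 9 had a negative log2 fold change (median -0.61, none called, 2 at an unadjusted p below 0.05, Myh11 and Myocd), and of 6 mesothelial markers 5 had a positive one (median 1.32, none called). In batch 2, with 1 library a strain, the median SHR-minus-WKY log2 difference was -1.767 in smooth muscle and 3.365 in mesothelial markers. In batch 1 these medians were -0.087 and 0.199. Those of the fibroblast markers were 2.142 in batch 1 and 2.111 in batch 2. Of 4 tested endothelial markers, 2 had a positive log2 fold change and 2 a negative one, none called. Tek had the smallest p of these (log2 fold change 3, SE 0.63, unadjusted p = 0.0035, edgeR adjusted p = 0.182; DESeq2 adjusted p = 0.000282). It also passed the filter on low counts through the SHR libraries. The part of these marker differences in the strain values below was not tested.

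Among the RNA sensors, Ifih1 (gene identifier 499801), the MDA5 helicase that recognises long double-stranded RNA, had the smallest p of the module. It stood at 10.9, 10 and 12 CPM in WKY replicates 1 to 3 and at 16.2, 16.5 and 21.4 CPM in SHR. Every SHR library was above every WKY library, by a fitted 1.63-fold (log2 fold change 0.705, SE 0.14, unadjusted p = 0.00286, edgeR adjusted p = 0.168). DESeq2 called it (log2 fold change 0.72, SE 0.18, adjusted p = 0.00248), and the difference was 0.64 in batch 1 and 0.825 in batch 2 on the log2 scale. With any 1 library left out it lay between 0.64 and 0.75. Dhx58, the LGP2 helicase that modulates the other sensors, had 5.95, 4.97 and 2.92 CPM in WKY against 6.93, 4.54 and 6.48 in SHR, and Ddx58, the RIG-I helicase for short double-stranded RNA, had means of 27.9 ± 19.9 and 27.9 ± 15 CPM (SD, n = 3 each). Both overlapped between the strains.

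Ifi44, an interferon-induced gene of the cytoplasm, showed the largest strain difference of the members tested. The WKY libraries had 7.87, 11.7 and 4.28 CPM and the SHR libraries 18.8, 12.5 and 21.6 CPM, again without overlap, with SHR replicate 2 close to WKY replicate 2. The log2 fold change was 1.21 (SE 0.42, unadjusted p = 0.0317, edgeR adjusted p = 0.341; DESeq2 adjusted p = 0.0922). Its size rested on batch 2: the log2 difference was 0.67 in batch 1 and 2.3 between the single libraries of batch 2, and the fitted value was 0.68 without either WKY replicate 3 or SHR replicate 3. Oasl was the third member without overlap, with 0.404, 0.529 and 0.496 CPM in WKY and 0.84, 0.612 and 1.3 CPM in SHR, from 8 to 25 counts (log2 fold change 0.88, SE 0.45, edgeR adjusted p = 0.474). Strain libraries did not overlap in 4.5% of all genes tested with SHR higher and in 5.3% with SHR lower, against 3 and 0 of the 30 members. The 3 include Oasl, with 8, 10 and 8 counts in WKY and 16, 12 and 25 in SHR. Oasl passed the filter on low counts through the SHR libraries, so its lack of overlap is no support for a strain difference.

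Bst2, Dtx3l and Ifit2, with the next smallest p values, overlapped between the strains. Bst2, the membrane tether (tetherin) that holds budding virus on the cell, had 7.92, 5.71 and 2.42 CPM in WKY and 9.24, 6.98 and 11 CPM in SHR (strain log2 fold change 0.86, SE 0.46, edgeR adjusted p = 0.491). Dtx3l, a ubiquitin ligase that works as a pair with Parp9, had 14.8, 12.3 and 9.93 CPM in WKY and 17.5, 13.5 and 26.7 CPM in SHR (strain log2 fold change 0.60, SE 0.30, edgeR adjusted p = 0.469). Without either WKY replicate 3 or SHR replicate 3 the fitted value was 0.25 for Bst2 and 0.20 for Dtx3l. Ifit2, whose protein binds RNA and restrains translation, went the other way in batch 1, with 73 and 81.4 CPM in WKY against 45.8 and 51.5 CPM in SHR. In batch 2 it was low in both strains, at 19.9 (WKY) and 22.1 CPM (SHR), and the fitted difference was -0.40 (SE 0.20, edgeR adjusted p = 0.473; -0.67 without either batch 2 library, -0.25 without SHR replicate 1). The de-ISGylating protease gene Usp18, which also dampens the receptor, had a similar arrangement, with 12.6 and 24 CPM in batch 1 WKY and 8.76 and 9.58 CPM in batch 1 SHR. Its batch 2 levels were 1.86 (WKY) and 2.23 CPM (SHR), and its log2 fold change was -0.63 (SE 0.38, edgeR adjusted p = 0.536).

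The 4 transcription factors overlapped between the strains. Irf1, an activator of interferon and antigen-presentation genes, ranged from 16.1 to 18.6 CPM in WKY and from 15.2 to 23 CPM in SHR. Irf7, the factor that amplifies interferon production, had means of 18.5 ± 1.3 and 17.9 ± 3.4 CPM, Irf9 of 29.8 ± 7.55 and 31.6 ± 19.2, and Stat2 of 69.8 ± 15.7 and 60 ± 5.55 (WKY and SHR, SD, n = 3 each). Their log2 fold changes lay between -0.20 and 0.09. Adar, the editor of adenosines in double-stranded RNA, had the narrowest spread of all members, with 43.4 to 49.6 CPM in WKY and 48 to 53.4 CPM in SHR. Among the PARP genes, whose products attach ADP-ribose to proteins, Parp9 (partner of Dtx3l) had 41.6, 39.4 and 37 CPM in WKY against 41.7, 30.4 and 54.7 CPM in SHR. Parp12 had 29.3, 29.2 and 25.6 CPM against 30.2, 28.7 and 21 CPM, and Parp14 had 48.8, 48.8 and 46.9 CPM against 49.4, 33.5 and 39.5 CPM. The strains overlapped in each, and the log2 fold changes lay between -0.24 and 0.08.

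In the remaining members the strains overlapped. The guanylate-binding GTPase gene Gbp2 had 20.5, 36.6 and 14 CPM in WKY against 36.8, 22.3 and 25 CPM in SHR. Mx2 had 2.32, 1.22 and 4.53 CPM against 3.78, 3.62 and 2.75 CPM, and Cmpk2 had 4.04, 3.7 and 1.55 CPM against 4.46, 4.64 and 3.47 CPM. The highest WKY library exceeded the lowest SHR library in all 3. Ifi35, which binds other interferon-induced proteins, had 16.3, 19.9 and 14 CPM against 21.5, 16.4 and 12.5 CPM, and the pro-apoptotic gene Xaf1 had 9.18, 8.83 and 8 CPM against 10, 7.34 and 11.3 CPM. Low-level members overlapped as well, Oas1a with 2.17, 1.53 and 0.496 CPM against 1.57, 1.53 and 1.55 CPM and Ifit3 with 1.16, 1.53 and 1.61 CPM against 1.1, 1.53 and 0.777 CPM. Herc6 had 1.61, 1.37 and 0.993 CPM against 1.47, 0.561 and 1.4 CPM. All 5 tested members of the other antiviral effectors (Bst2, Cmpk2, Gbp2, Mx1, Mx2) were higher in SHR by their fitted values (median 0.47 on the log2 scale), none called. Counts that were not whole, which arise where reads are shared between similar genes, occurred in 3 members, Mx1, Mx2 and Oas1a, and their values are therefore uncertain. Mx1 and Mx2 added together gave 6.46, 3.54 and 5.64 CPM in the WKY libraries and 7.4, 6.37 and 4.51 CPM in those of SHR. Parp9 and Dtx3l overlap in the current RefSeq annotation, as do Xaf1, Parp12 and Eif2ak2 with another annotated gene each. The counts of these genes were whole in every library. No strand setting of the counting is given in the sources used here, so whether the overlaps affected these values cannot be told.

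**Figure D3:**
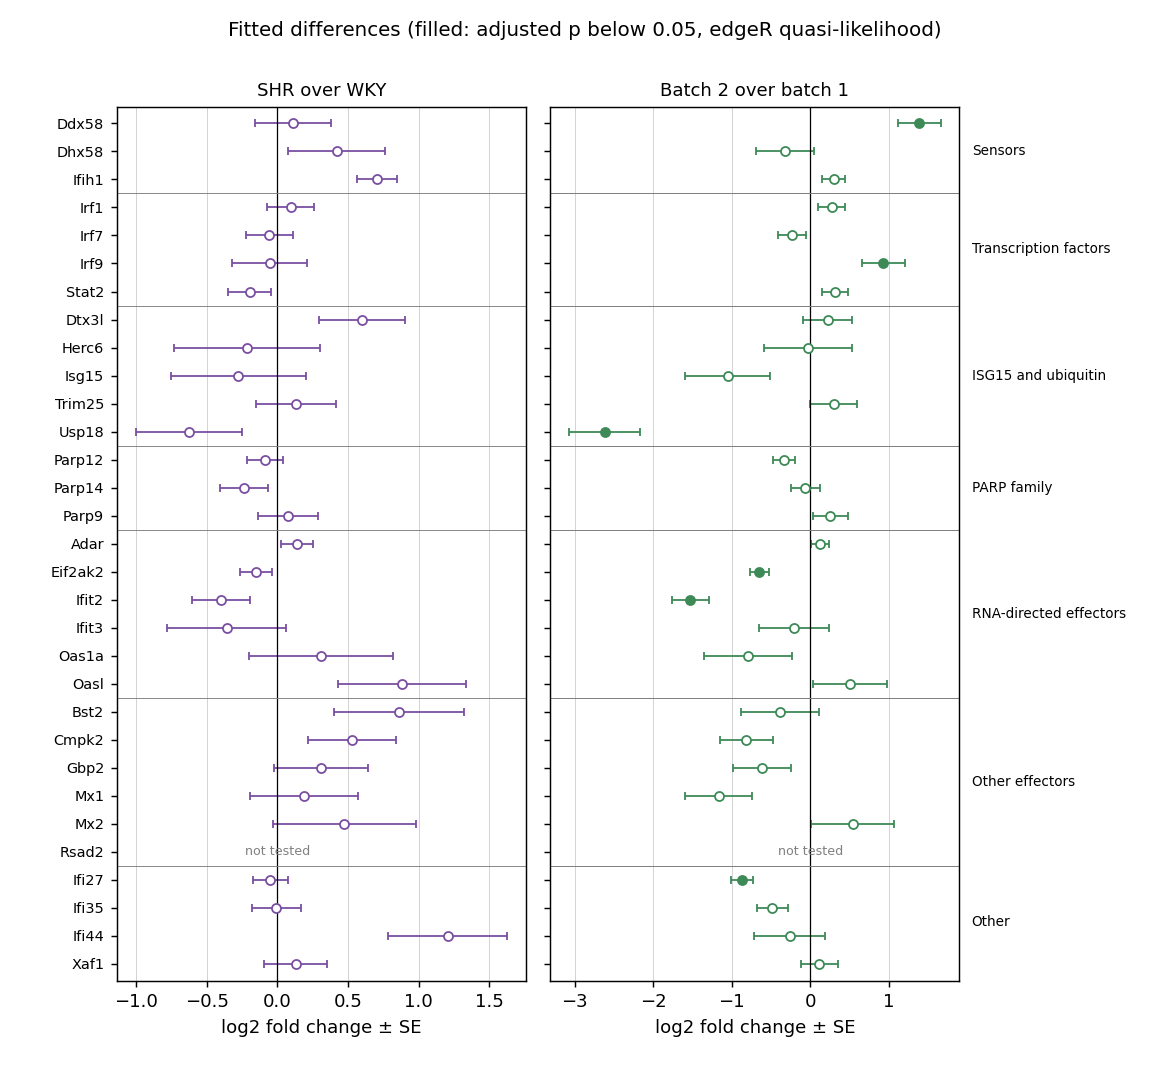
Log2 fold change with its SE for each member, SHR over WKY on the left and batch 2 over batch 1 on the right, from 1 edgeR fit to 6 libraries; filled points have an adjusted p below 0.05. No point is filled on the left; on the right Ddx58 and Irf9 are filled on the higher side and Usp18, Ifit2, Ifi27 and Eif2ak2 on the lower side.

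The libraries of batch 2 differed from those of batch 1 in 6 members, 2 higher and 4 lower, by the same edgeR fit with strain as a term. Of all genes tested, 43.5% were called, 21% higher and 22.5% lower, so 6 of 30 is a smaller share than that of all genes. The median log2 fold change of the members was -0.22, with 18 of 30 negative against 50.1% of all genes. What a batch stands for is not stated in the labels, and the marker lists above differed between batches as well: 8 of 10 tested smooth muscle markers were called higher in batch 2, and the part of this in the batch values below was not tested.

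Usp18 showed the largest batch difference and the largest spread of all members, 12.9-fold between its highest and lowest library. Both batch 2 libraries were below all 4 batch 1 libraries, whose mean was 13.8 ± 7.06 CPM (SD, n = 4), against a mean of 2.04 CPM in batch 2. It fell by 2.62 on the log2 scale (SE 0.45, edgeR adjusted p = 0.00743), which is 6.14-fold. The fitted value was -3.29 without SHR replicate 3 and -2.04 without WKY replicate 3, called in both. Ifit2 fell from 62.9 ± 17 CPM (SD, n = 4) to a mean of 21 CPM, 2.88-fold (SE 0.23 on the log2 scale, edgeR adjusted p = 0.00509). The same direction was found in both strains, with log2 differences of -1.95 in WKY and -1.13 in SHR.

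Ifi27, which encodes a small mitochondrial and nuclear-envelope protein, was close between the strains and separated by batch. It had 166.5, 159 and 93.2 CPM in WKY and 171, 152.5 and 84.7 CPM in SHR. The batch 2 libraries were 1.82-fold lower (SE 0.14 on the log2 scale, edgeR adjusted p = 0.00589), while the strain difference was -0.05 on the log2 scale. Eif2ak2, the kinase PKR that stops translation on binding double-stranded RNA, had 53.5, 49.9 and 33.9 CPM in WKY and 48.9, 46.2 and 29.3 CPM in SHR. It fell 1.57-fold in batch 2 (SE 0.12 on the log2 scale, edgeR adjusted p = 0.00974; adjusted p = 0.0523 without SHR replicate 3).

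Ddx58 and Irf9 were the 2 members called higher in batch 2, while 12 of 30 had a positive batch log2 fold change. Ddx58 had 14.6, 18.3 and 50.7 CPM in WKY and 25.8, 14.1 and 43.8 CPM in SHR, with both batch 2 libraries above the rest (2.62-fold, SE 0.27 on the log2 scale, edgeR adjusted p = 0.0112; adjusted p = 0.088 without WKY replicate 3). Irf9, the DNA-binding part of ISGF3, had 32.2, 21.3 and 35.8 CPM in WKY and 21.3, 19.9 and 53.7 CPM in SHR (1.91-fold, SE 0.28 on the log2 scale, edgeR adjusted p = 0.0394). WKY replicate 1 lay near WKY replicate 3, and the call was lost without WKY replicate 2 (adjusted p = 0.0851), SHR replicate 1 (0.12), SHR replicate 2 (0.121) or SHR replicate 3 (0.298). Irf9's partner Stat2, with 64.4, 57.6 and 87.5 CPM in WKY and 63.7, 53.6 and 62.7 CPM in SHR, was not called (log2 fold change 0.32, edgeR adjusted p = 0.161).

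Batch libraries did not overlap in 2 members with batch 2 higher and in 9 with batch 2 lower, against 27.1% and 30.5% of all genes. By DESeq2 there were 2 members called higher and 5 lower, against 25.9% and 25.1%. Besides those called by edgeR, the members without overlap include Mx1, with 4.14, 2.33 and 1.12 CPM in WKY and 3.62, 2.75 and 1.76 CPM in SHR. Mx1 missed the threshold in edgeR (log2 fold change -1.17, SE 0.43, adjusted p = 0.0735) and passed it in DESeq2 (adjusted p = 0.0496). Members with an ISRE match had a median batch log2 fold change of -0.26 (10 of 13 negative), those with an entry but no match 0.26 (4 of 10 negative), and those without a promoter entry -0.32 (4 of 7 negative). The corresponding strain medians were 0.13, 0.08 and 0.11. The difference between these groups was not tested.

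**Figure D4:**
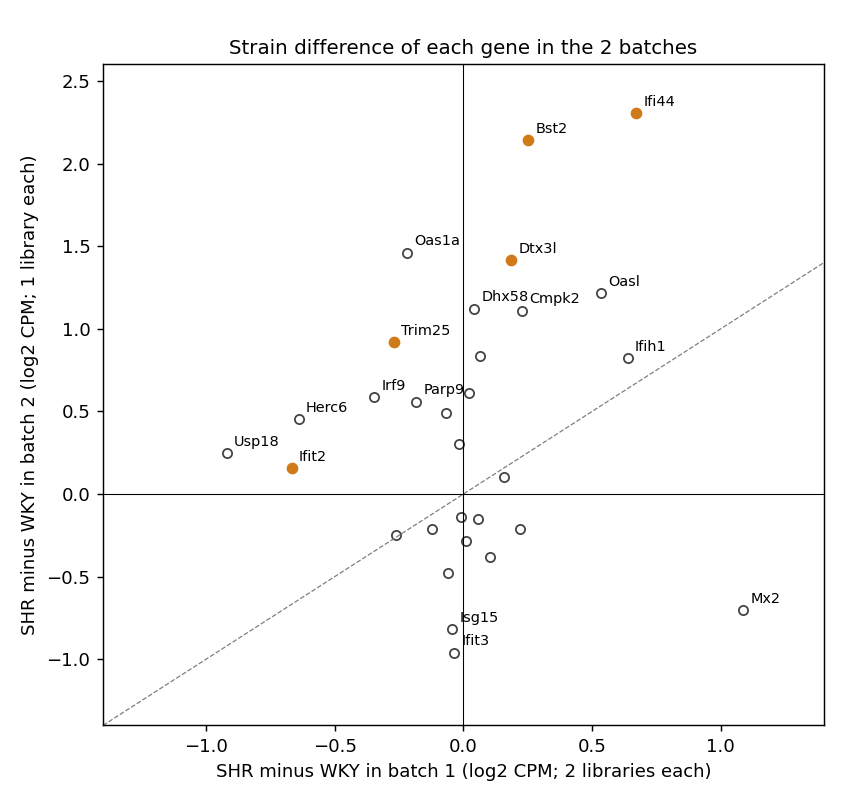
Difference SHR minus WKY of mean log2 CPM for each tested member in batch 1 (horizontal axis, 2 libraries a strain) and in batch 2 (vertical axis, 1 library a strain), with the diagonal of equal differences; filled points have an unadjusted interaction p below 0.05. Ifi44 and Bst2 lie far above the diagonal, at 2.3 and 2.14 in batch 2 against 0.67 and 0.25 in batch 1.

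A further comparison asked whether the strain difference depended on the batch. The interaction term called no member and no gene of the whole table in edgeR (percent called 0), with 2 residual degrees of freedom; 1597 genes had an unadjusted p below 0.05, and DESeq2 called 451 genes (3.58%; 1.86% larger and 1.72% smaller in batch 2) but no member. Of the members, 5 had an unadjusted p below 0.05, all with a larger signed SHR-minus-WKY difference in batch 2, against 5.44% of all genes in that direction and 7.22% in the other. They were Bst2 (interaction log2 value 1.94, SE 0.54, edgeR adjusted p = 0.299), Ifi44 (1.65, SE 0.56, adjusted p = 0.35), Dtx3l (adjusted p = 0.324), Trim25 (adjusted p = 0.307) and Ifit2 (adjusted p = 0.337). The sign changed in Ifit2, from -0.667 in batch 1 to 0.156 in batch 2, where the strains lay closer together. In Trim25 it changed from -0.271 to 0.918. Trim25, the ubiquitin ligase that activates RIG-I, had 44.8, 49.4 and 37.3 CPM in WKY and 33.6, 45.3 and 70.7 CPM in SHR. In 6 members WKY replicate 3 lay below and SHR replicate 3 above the batch 1 libraries of its strain (Ifi44, Xaf1, Bst2, Parp9, Dtx3l, Trim25), against 6.22% of all genes; the reverse held for Mx2 and Ifit3, against 5.37%. In 9 members both replicate 3 libraries lay below the batch 1 libraries of their strain (34.7% of all genes) and in 5 both lay above (32.9%). Parp9 and Dtx3l are neighbouring genes that overlap, so their values may not be independent. Each of these arrangements rests on 1 library of each strain.

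Within batch 1 the members' median log2 difference between SHR and WKY was 0.001, with 15 of 30 higher in SHR, and between the batch 2 libraries it was 0.38, with 19 of 30 higher. SHR replicate 3 had the highest value in 11 of the 30 members, against 23.5% of all genes, and WKY replicate 3 the lowest in 10, against 22.3%. SHR replicate 1 was highest in 8 members (10% of all genes) and SHR replicate 2 lowest in 8 (13.6%). Between these replicates of 1 strain and batch, the median absolute log2 difference was 0.376 in the members and 0.239 in all genes; between WKY replicates 1 and 2 it was 0.236 and 0.23. The summed level of the 31 members was 774, 781.5 and 636 CPM in WKY and 784, 688 and 725 CPM in SHR, overlapping between strains.

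**Figure D5:**
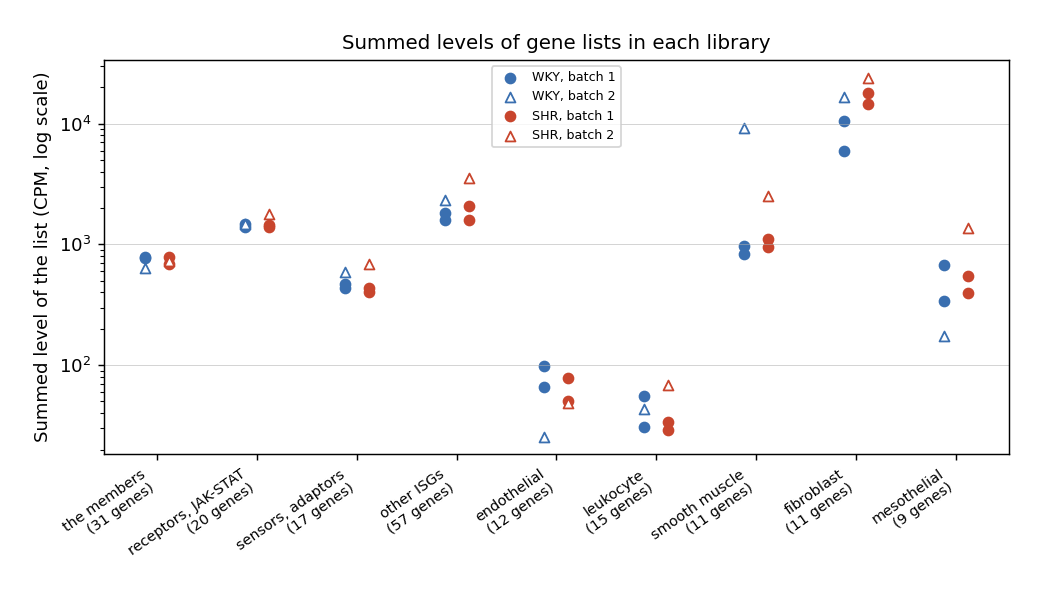
Summed CPM of each gene list in each library (log axis), WKY in blue and SHR in red, circles for batch 1 and triangles for batch 2. The sum over the members stays between 636 and 784.2 CPM, while the smooth muscle markers reach 9221 CPM in the batch 2 WKY library and the fibroblast markers range from 5948 to 24050 CPM.

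Upstream of the members, 20 receptor and signalling genes of the interferon pathway were all tested. None was called between the strains; 4 were higher in SHR at an unadjusted p below 0.05 and none lower (all genes 6.1% and 7.18%), and the median log2 fold change was 0.09. Ifnar1, the receptor chain that binds Tyk2, had 107.5, 115.6 and 109.9 CPM in WKY and 145.3, 147.4 and 202 CPM in SHR. Its groups did not overlap (log2 fold change 0.55, SE 0.15, edgeR adjusted p = 0.255), and DESeq2 called it (adjusted p = 0.0221). Ifngr2, a chain of the type II interferon receptor, had 43.9, 31.2 and 27.3 CPM in WKY and 46.9, 53.6 and 56.5 CPM in SHR (strain log2 fold change 0.63, SE 0.21, edgeR adjusted p = 0.316). Socs1, an inhibitor of the JAK kinases that is itself induced by interferon, had 1.01, 1.43 and 1.74 CPM in WKY and 2.15, 1.99 and 4.72 CPM in SHR (strain log2 fold change 0.99, SE 0.35, edgeR adjusted p = 0.337). All SHR libraries exceeded all WKY libraries in Ifnar1, Ifnar2, Ifngr2 and Socs1, 4 of 20 genes, where 4.5% of all genes did so.

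Of 15 tested sensors and adaptors outside the members, none was called between the strains; an unadjusted p below 0.05 was found for 2 in the direction of SHR and for 1 in that of WKY (all genes 6.1% and 7.18%). Tmem173, the STING adaptor of DNA sensing, had 6.96, 14.4 and 6.27 CPM in WKY and 22, 16.7 and 16 CPM in SHR (strain log2 fold change 1.02, SE 0.32, edgeR adjusted p = 0.292). Nod1, a sensor of bacterial peptidoglycan, had a log2 fold change of 0.51 (SE 0.17, edgeR adjusted p = 0.308). The strains did not overlap in either, which makes 2 of 15 genes against 4.5% of all genes. Irf8, a factor best known from myeloid cells, had 57.4, 13.2 and 22.8 CPM in WKY and 5.25, 6.01 and 16.5 CPM in SHR (strain log2 fold change -1.93, SE 0.76, edgeR adjusted p = 0.376), with WKY replicate 1 far above the others. The Irf8 value was -0.90 without WKY replicate 1, and -2.64 without either batch 2 library.

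A list of other interferon-stimulated genes outside the module matched 57 rows, of which 47 were tested. Of the untested, Ifi44l (56, 47 and 7 counts in WKY against 3, 1 and 1 in SHR) and Oas3 (4, 2 and 2 against 0, 0 and 0) were lower in every SHR library. A count of 0 leaves room for up to 3 counts, so the Oas3 values lie near the floor and give no direction. Tnfsf10 (2, 6 and 1 counts against 23, 8 and 28) was higher in every SHR library. The 47 tested genes had a median strain log2 fold change of 0.03, with 25 positive and none called. Ifitm1, a membrane protein that blocks viral entry, came nearest, with 4.24, 2.27 and 30.1 CPM in WKY and 11.2, 10.2 and 84.6 CPM in SHR (strain log2 fold change 1.63, SE 0.25, edgeR adjusted p = 0.103; DESeq2 adjusted p = 9.9e-07). Within each batch SHR was above WKY, and both batch 2 libraries were above batch 1 (log2 fold change 3.10, edgeR adjusted p = 0.00121). Apol3, an apolipoprotein L gene, had 0.101 to 0.423 CPM in WKY and 1.78 to 3.16 CPM in SHR (strain log2 fold change 3.36, SE 0.67, edgeR adjusted p = 0.166; DESeq2 adjusted p = 0.00138). Its counts were 2, 8 and 2 in WKY and 40, 35 and 61 in SHR. It thus passed the filter on low counts through the SHR libraries, and the size of its difference is uncertain. Its fitted value was 4.37 without WKY replicate 2 and 2.87 without either batch 2 library. Ciita, the switch of class II antigen presentation, had 1.87, 1.27 and 11.1 CPM in WKY and 0.157, 0.51 and 1.4 CPM in SHR (strain log2 fold change -2.51, SE 0.51, edgeR adjusted p = 0.174; DESeq2 adjusted p = 0.000919). Its counts were 37, 24 and 179 in WKY and 3, 10 and 27 in SHR. Ciita thus passed the filter through the WKY libraries, and the size of its difference is uncertain. With any 1 library left out its value lay between -3.11 (without SHR replicate 2) and -2.20.

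Between batches these lists held more genes called higher than lower, where 21% of all genes were called higher and 22.5% lower. Among receptors and signalling genes 5 were called higher (Il10rb, Stat3, Irf2, Irf2bp2, Pias1) and 2 lower (Ptpn2, Ptpn11). Pias1, an inhibitor of STAT binding, had 20.1 to 22.3 CPM in batch 1 and 44.7 and 45.5 CPM in batch 2 (log2 fold change 1.07, SE 0.12, edgeR adjusted p = 0.00244), and the phosphatase gene Ptpn11 fell by 1.10 on the log2 scale (SE 0.16, edgeR adjusted p = 0.00409). Sensors and adaptors had 6 called higher (Mavs, Ticam1, Myd88, Ikbke, Irf3, Irf5) and 1 lower (Cgas). Ticam1, the TRIF adaptor, rose by 1.31 (SE 0.14, edgeR adjusted p = 0.0023) and Irf3, the factor activated by these adaptors, by 0.92 (SE 0.14, edgeR adjusted p = 0.00542) on the log2 scale. In the other interferon-stimulated genes 10 were called higher, among them Ifitm1 and the exonuclease gene Isg20 (log2 fold change 2.64, SE 0.32, edgeR adjusted p = 0.00281), and 1 lower, Ifi27l2b. The other 8 called higher were Ifitm3, Sp110, Lgals3bp, Lgals9, Trim34, Helz2, Znfx1 and Ciita. Against the 43.5% called among all genes, these were 7 of 20, 7 of 15 and 11 of 47. In the other interferon-stimulated genes the 10 of 47 called higher were close to the share of all genes, and the 1 of 47 called lower was below it. The calls of Irf2, Pias1, Ptpn11, Mavs, Ticam1, Irf3, Irf5, Ifitm1, Isg20, Helz2 and Znfx1 held with any 1 library left out. Those of the other genes named here were lost without at least 1 library: Cgas, Il10rb, Lgals9 and Ptpn2 without WKY replicate 1, Sp110 and Stat3 without WKY replicate 2, and Ciita, Ifi27l2b and Irf2bp2 without WKY replicate 3. Ikbke, Myd88 and Trim34 lost theirs without SHR replicate 1, and Ifitm3 and Lgals3bp without SHR replicate 3. Only 1 such library is named for each gene, and some of these calls were also lost without others. With any 1 library left out, the fitted value lay between 0.36 and 1.43 for Lgals9 and between 0.41 and 0.90 for Stat3. The log2 difference between batches was 1.435 in WKY and 0.384 in SHR for Lgals9, and 0.418 and 0.903 for Stat3.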

How the data were processed

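The authors deposited estimated counts per gene for 6 libraries; per the submitters' processing notes the build was Rnor_6.0 and the tools were RSEM 1.2.28, Bowtie2 2.4.4 and DESeq2 1.42.1, listed without a role. For strand and for shared reads the setting was not given in the sources used here. A share of 9% of the counts was not whole (tolerance 0.001), and all were rounded. A second deposited table, of log2 values with equal batch means, was not used. Library totals ranged from 18462051 to 19947278, which limits members with few counts.

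Genes were filtered by edgeR's filterByExpr by strain, scaled by TMM and fitted in edgeR 4.0.16 (R 4.3.3, limma 3.58.1) with strain and batch as terms (3 residual degrees of freedom), using the robust quasi-likelihood F-test and Benjamini-Hochberg adjustment over 12614 genes at 0.05. An interaction term was fitted separately. CPM use TMM-scaled totals, and differences of log2 CPM add a prior count of 2. Alternatives were RLE factors, no filter, DESeq2 1.42.0, no batch term, a replicate block, batch 1 only and leaving out each library. Same-numbered libraries deviated together (r = 0.303, 0.4 and 0.655), and number 3 is batch 2. In batch 1, however, differently numbered libraries correlated at least as much (WKY 2 with SHR 1, r = 0.484; WKY 1 with SHR 2, r = 0.493), and WKY 1 minus WKY 2 against SHR 1 minus SHR 2 gave r = -0.197. The values follow the batch, and the block is given as an alternative only. The scripts were tested on simulated data.

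The members and all gene lists were chosen with earlier results of these data known. Named genes were members called in either comparison or with the 6 smallest p in each, and in the other interferon lists those called and the 3 smallest p. Promoter windows are from RefSeq GRCr8, a different build from that of the counts, matched by gene identifier.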

Additional observations from a re-analysis of the deposited data

Results flagged for a closer look

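In the 4 batch 1 libraries, which mix the strains, 3 of 30 members had 1 library far from the other three (gap to the nearest over the range of all 4 above Dixon's critical value); chance does this in about 1 of 20 groups, and 798 of 12614 genes tested (6.33%) had such a library. Oas1a had 2.17 CPM in WKY replicate 1 against 1.53 to 1.57 CPM in the rest (gap over range 0.929). Irf9 had 32.2 CPM in WKY replicate 1 against 19.9 to 21.3 CPM (0.884). Parp14, a PARP that takes part in antiviral responses, had 33.5 CPM in SHR replicate 2 against 48.8 to 49.4 CPM (0.959).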

How the results depend on the processing

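DESeq2 called 1 member higher between strains (Ifih1) where edgeR called 0, and 695 genes where edgeR called 32. Without a batch term 2 genes were called. With the replicate block, 6 genes and no member were called, and the block changed no member's call. Leaving out 1 library gave 0 to 65 genes, with 0 without SHR replicate 1 or SHR replicate 2 (1134 and 1513 at an unadjusted p below 0.05), and 4, 65 and 20 without WKY replicates 1, 2 and 3 in turn. Members called higher in batch 2 ranged from 1 to 2 and lower from 3 to 4 with 1 library left out, and genes from 3972 to 4807; the member median went from -0.35 to 0.09, the latter without WKY replicate 3. For the interaction, DESeq2 called 451 genes where edgeR called 0. The strain median of the members, 0.10, was -0.004 in batch 1 only and 0 to 0.20 with 1 library left out. With a batch 2 library left out, the lone one is assumed to vary like the others. RLE factors and no filter changed no call of a member. The causes of these changes were not tested. Members under 5 CPM are limited by their counts.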
